A study of Pardosa pseudoannulata with 16 samples.

Results

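The 100 sequence clusters that were abundant in every library of whole wolf spiders (Pardosa pseudoannulata) are described here. They were chosen by their own measured values: the lowest FPKM of each cluster over the 16 libraries was taken, and the 100 clusters with the highest such minimum became the members. FPKM is the number of fragments per kilobase of cluster, relative to how many fragments of that library were mapped. The members are 100 of the 136360 clusters in the table, or 0.0733%. Because their levels chose them, their abundance is given as a description with no test. The choice used no group label, but it leaves out any cluster that dropped in a single library, so it favours clusters with little spread.

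The study asked how urea in soil affects a spider that hunts in rice fields. Poly-A RNA of whole spiders was sequenced in 16 libraries, 4 for each of the groups Ck, UL, UM and UH. The design text names urea at 0, 200 and 400 mg/kg of soil, given for 30 days to spiders collected in the field, without tying the 3 concentrations to the 4 groups. The labels give all 16 libraries, Ck included, the same urea treatment. No concentration, order, sex, stage or age was therefore assigned to a group, and Ck was used as the reference for its name alone. The labels do not state whether each library is another animal or pool. The p-values below therefore reflect the spread among the libraries, which may be technical.

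In poly-A RNA of a whole arthropod, a small number of transcripts usually makes up a large part of the molecules. Transcripts for ribosomal proteins, muscle proteins, mitochondrial proteins and secreted proteins are often among them. Their levels depend both on how active each tissue is and on how much of that tissue is in the animal. In whole-body RNA, fewer cells of a type and less RNA per cell cannot be told apart. FPKM divides by the mapped fragments of the library, so a rise of the most abundant transcripts lowers the value of the others. No gene name or sequence accompanies the clusters, so no member is given a role here. For the same reason the labelled tissue was not checked against marker genes.

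Depth was estimated from the low values, which fall on whole multiples of 1 fragment, and came to between 16.7 and 21.0 M (mega) fragments per library. The estimated mean fragment length ran from 258 to 295 bases. Among the 81 members of 500 bases or more, each library held at least 2164 estimated fragments per member. On the 19 shorter members, FPKM depends more on the fragment length assumed for the library.

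The members covered a wide range of abundance. Their lowest FPKM ran from 375.31 to 44216.72, with a median of 613.59, and 25 of the 100 stayed at 1000 FPKM or more in each of the 16 libraries. Just inside the limit lay Cluster-9253.47155, Cluster-9253.48393 and Cluster-9253.48457, with lowest values of 378.52, 375.68 and 375.31 FPKM. Just outside lay Cluster-9253.49260, Cluster-9253.50528 and Cluster-9253.49331, with 373.05, 369.39 and 366.01 FPKM, so the limit falls in a continuous range. In 1 library or more, 578 clusters reached the lowest member value, so most clusters that can be that abundant were not so in each library. In single libraries, between 37 and 66 members ranked among the 100 most abundant clusters, and the lowest rank of a member was 296, in UH replicate 4.

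The 10 members with the highest minimum spanned more than an order of magnitude. Cluster-9253.47764 (703 bases) had 57879, 46862, 52046 and 52794 FPKM in Ck replicates 1 to 4 and 137624, 54379, 55259 and 44217 in UL. It had 78166, 117193, 121868 and 105295 FPKM in UM and 94188, 67137, 59574 and 71197 in UH. The values of UM and of UH lay above those of Ck, while UL held both the highest and the lowest library. Next came Cluster-9253.47660 (452 bases), whose values ran from 9009.8 FPKM in UH replicate 4 to 19490.09 in UL replicate 2. Cluster-9253.48231 (750 bases) ran from 5705.54 FPKM in UM replicate 3 to 14724.32 in Ck replicate 2. The groups overlapped in both, apart from Cluster-9253.48231 between UH and UL, where the UH values lay lower.

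Of the other 7, Cluster-9253.82085 (1883 bases) and Cluster-9253.47864 (1121 bases) were steadier, with coefficients of variation over the 16 libraries of 15.9 and 16.7%. Cluster-9253.82085 lay between 4147.04 and 8263.74 FPKM, and Cluster-9253.47864 between 3981.73 and 7834.38 FPKM. Cluster-9253.48799 (4229 bases) and Cluster-9253.48582 (1287 bases) had medians of 5357 and 5614 FPKM and were both lowest in UH replicate 4 and highest in UL replicate 2. Cluster-9253.48052 (480 bases) had a median of 3366 FPKM and was lowest in UH replicate 2 and highest in Ck replicate 2. Cluster-9253.47828 (450 bases) is described with the members that passed a test.

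Cluster-9253.51649 (377 bases) varied most, by 16.1-fold between its lowest and highest library. It had 4161.51, 2653.06, 2986.37 and 2329.49 FPKM in Ck and 35152.72, 2217.07, 2180.43 and 4652.91 in UL. In UM it had 7115.04, 15826.07, 18151.75 and 10081.02 FPKM, and in UH 7185.34, 7098.43, 3040.33 and 6514.65. The UM values lay above those of Ck and below UL replicate 1, and the UH values overlapped those of Ck.

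Together the 100 members took between 25.0 and 41.6% of the FPKM sum of a library. The share in replicates 1 to 4 was 25.5, 32.7, 30.5 and 30.9% in Ck and 41.6, 40.0, 31.2 and 27.4% in UL. It was 33.3, 36.4, 32.5 and 37.8% in UM and 35.2, 27.0, 33.9 and 25.0% in UH. The mean share was 29.9% ± 3.08 for Ck, 35.1% ± 6.87 for UL, 35.0% ± 2.50 for UM and 30.3% ± 5.01 for UH (SD, n = 4). The groups overlapped in each pair, although 3 of the 4 UM libraries lay above the highest Ck library. No test was run, since the share is built from the levels that chose the members.

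**Figure D1:**
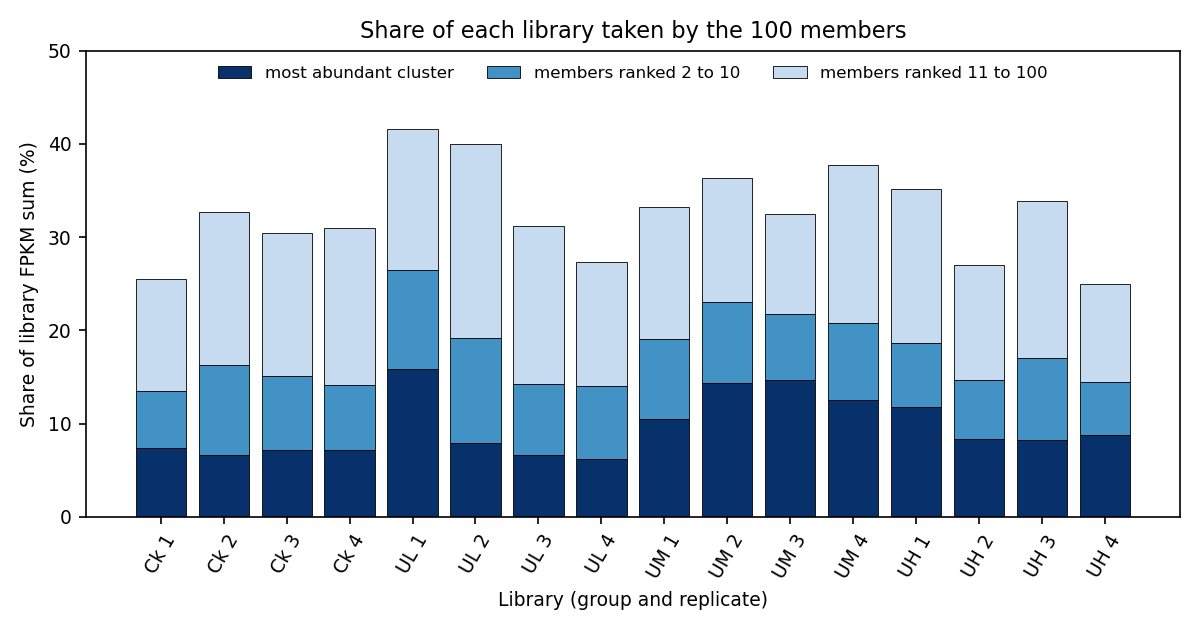
Share of the FPKM sum of each library (vertical axis, %) taken by the most abundant cluster, by the members ranked 2 to 10 and by those ranked 11 to 100, for each of the 16 libraries (horizontal axis). The stacks reach between 25.0 and 41.6%, and the lowest segment is tallest in UL replicate 1, at 15.9%.

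Cluster-9253.47764 was a large part of this share. It alone took 7.08% ± 0.294 of the FPKM sum of the Ck libraries, 9.17% ± 4.54 for UL, 13.0% ± 1.91 for UM and 9.32% ± 1.69 for UH (SD, n = 4). With that cluster left out of both the members and the total, the members took 24.6% ± 3.52 for Ck, 28.6% ± 5.29 for UL, 25.2% ± 3.29 for UM and 23.1% ± 4.84 for UH (SD, n = 4). The 9 members ranked 2 to 10 took 5.72 to 11.2% of a library, and the 90 ranked 11 to 100 took 10.5 to 20.8%. Counted as FPKM times length, the members took 18.6 to 32.3% of a library. This is not their share of fragments. In the depth fit, fragments followed FPKM times length minus fragment length, so full length gives short clusters too much weight.

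Changes across the groups were tested with limma on log2(FPKM + 1) over the 36003 clusters that reached 1 FPKM in 4 libraries or more. All 100 members were among them, which their levels fix. A member was called when its Benjamini-Hochberg adjusted p, taken over all tested clusters, was under 0.05. The comparisons share groups, so their values are related. The standard error of the log2 fold changes had a median of 0.22 over the members and 0.24 over the tested clusters, and the 95% interval of a member reached a median of 0.48 to either side.

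Between UH and Ck, 2 of the 100 members were called, both higher in UH. Among all tested clusters the share called was 11.2%, with 3.39% higher and 7.86% lower. The members' log2 fold changes ran from -0.78 to 0.93 with a median of 0.07, beside a median of -0.15 over all tested clusters. At an unadjusted p under 0.05 there were 10 members, beside 27.5% of all tested clusters. In 9 members the 4 UH values lay above the 4 Ck values, and in 0 they lay below. Over all tested clusters these shares were 3.67% and 13.4%, or 17.1% in either direction. The direction depended on scaling for many members: 59 of the 100 were higher in UH as deposited, 77 with median ratio scaling and 22 with quantile normalization. As deposited, 34.8% of all tested clusters were higher in UH.

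From UL to UH, 6 of the 100 members were called, 2 higher and 4 lower in UH. The background was 28.7% of all tested clusters called, with 8.87% higher and 19.9% lower. Members' log2 fold changes ran from -1.56 to 0.85 with a median of 0.01, beside -0.27 over all tested clusters. At an unadjusted p under 0.05 there were 17 members, beside 41.9%. The split of calls depended on scaling: with median ratio scaling 14 members were called higher and 1 lower (19.2% of all tested clusters called), and with quantile normalization 1 higher and 11 lower (21.7%).

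In the other 4 comparisons limma called 0 members. For UL against Ck, 0.0167% of all tested clusters were called, and 1 member had an unadjusted p under 0.05, beside 16.8% of all tested clusters. For UM against Ck the share called was 0.10%, and 4 members had an unadjusted p under 0.05, beside 11.5%. For UM against UL it was 3.22%, and 3 members had an unadjusted p under 0.05, beside 18.3%. For UH against UM it was 2.82%, and 7 members had an unadjusted p under 0.05, beside 20.4%. A p that misses the threshold does not show that a level was the same: in each pairwise comparison a member's 95% interval reached at least 0.27 and at most 1.49 to either side on the log2 scale.

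The limma F test for any difference among the 4 groups called 2 members, Cluster-9253.48242 and Cluster-9253.48277, with adjusted p of 0.00688 and 0.0147. It called 18.9% of all tested clusters, and 7 members had an unadjusted p under 0.05, beside 36.3%. Within 0.5 of no change on the log2 scale lay between 76 members (UH against UL) and 96 members (UL against Ck) of the 100. Over all tested clusters that share ran from 57.4 to 80.1%. The members were chosen by a rule that favours small spread, so these shares are not read as a property of abundant clusters.

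**Figure D2:**
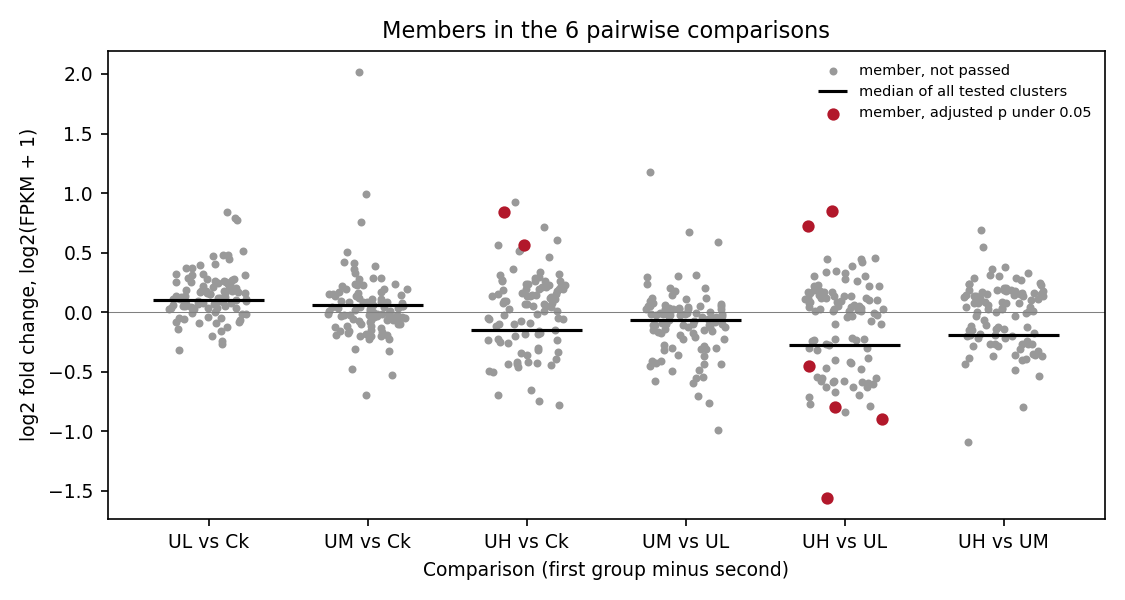
Log2 fold changes of the 100 members on the log2(FPKM + 1) scale (vertical axis) in the 6 pairwise comparisons (horizontal axis, first group minus second). Grey points are members that did not pass, red points those with adjusted p under 0.05, and black bars the median of all 36003 tested clusters. Red points appear in UH vs Ck (2) and UH vs UL (6), and the median bar lies lowest in UH vs UL, at -0.27.

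Cluster-9253.48277 (4050 bases) was higher in UH than in either Ck or UL. It had 486.71, 485.69, 518.76 and 517.72 FPKM in Ck and 463.59, 535.17, 662.58 and 528.75 in UL. In UM it had 565.95, 518.03, 480.78 and 688.66 FPKM, and in UH 871.62, 1033.44, 1031.6 and 702.2. The 4 UH values lay above the other 12, and the other groups overlapped. The log2 fold change was 0.84 ± 0.18 against Ck and 0.73 ± 0.18 against UL (SE; adjusted p = 0.0114 and 0.00809). Against UM it was 0.69 ± 0.18 and just missed the threshold (adjusted p = 0.0514).

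Both calls on Cluster-9253.48277 held with any 1 library left out (highest adjusted p = 0.0395 against Ck and 0.0276 against UL). With quantile normalization they were lost, at adjusted p = 0.0796 and 0.197. The call against Ck was also lost in a fit of those groups alone (adjusted p = 0.0651), and the call against UL with equal FPKM sums of the clusters that are not members (adjusted p = 0.0514).

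Cluster-9253.48242 (1544 bases) had the largest called change. It had 550.88, 1042.6, 731.94 and 956.17 FPKM in Ck, 1374.13, 1556.08, 1157.27 and 1407.62 in UL, and 899.18, 1131.89, 523.67 and 783.84 in UM. In UH it had 426.53, 428.51, 579.95 and 436.63 FPKM. The UH values lay below those of UL, and the UL values above those of UM and of Ck, while UH overlapped Ck and UM. Between UH and UL the log2 fold change was -1.56 ± 0.25 (SE, adjusted p = 0.000938), a level in UH of 0.340 times that in UL on this scale. The call held under the 10 other settings (highest adjusted p = 0.00305) and with any 1 of the 16 libraries left out (highest 0.00421).

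Between UH and Ck, the change of Cluster-9253.48242 was -0.78 ± 0.25 on the log2 scale (SE, adjusted p = 0.0589). Between UL and Ck the value was 0.78 ± 0.25 (SE, adjusted p = 0.194). Neither passed. It was the 1 member whose UL and Ck values did not overlap, with UL higher, beside 4.96% of all tested clusters in either direction, 3.51% higher and 1.45% lower.

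Cluster-9253.47828 (450 bases) was higher in UH than in UL. It had 5289.9, 2151.33, 3724.48 and 3874.58 FPKM in Ck, 2994.26, 2762.02, 3975.18 and 3398.68 in UL, and 4935.15, 3333.48, 4178.75 and 3748.98 in UM. In UH it had 5306.3, 6554.89, 5784.51 and 5878.38 FPKM, above the other 12 values, although Ck replicate 1 came close to the lowest UH value. The log2 fold change against UL was 0.85 ± 0.25 (SE, adjusted p = 0.023), and the call was lost without UL replicates 1 or 2 or UH replicate 2 (highest adjusted p = 0.0611). It was also lost with a pseudocount of 0.1 or no filter on low values (0.0706 and 0.0764). Against Ck and UM it was 0.71 ± 0.25 and 0.55 ± 0.25 (SE; adjusted p = 0.0845 and 0.239), and neither passed.

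Cluster-9253.47656 (2469 bases) was higher in UH than in Ck. It had 612.01, 446.94, 530.6 and 595.17 FPKM in Ck and 731.46, 771.05, 708.35 and 1040.22 in UH. In UL it had 512.22, 532.45, 673.37 and 661.41 FPKM, and in UM 686.6, 588.03, 626.78 and 654.48. The 4 UH values lay above the other 12. The log2 fold change against Ck was 0.57 ± 0.17 (SE, adjusted p = 0.0487), close to the threshold. With 1 library left out the call was kept only without Ck replicate 1 or UL replicate 4 and lost in the other 14 cases (adjusted p from 0.0429 to 0.127). It was lost in 7 of 10 other settings (highest 0.18).

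The remaining 3 called members were lower in UH than in UL, and each call was lost when any 1 of several libraries was left out. Cluster-9253.48763 (602 bases) had 4155.64, 5183.32, 5874.6 and 2977.25 FPKM in UL and 2526.65, 1861.3, 3459.46 and 1911.2 in UH. The groups overlapped, through UL replicate 4 and UH replicate 3 (log2 fold change -0.90 ± 0.29, SE; adjusted p = 0.0335). Cluster-9253.48225 (1573 bases) had 1631.93, 1860.15, 2047.1 and 1606.58 FPKM in UL and 971.67, 946.19, 1364.62 and 881.62 in UH, with no overlap (log2 fold change -0.79 ± 0.26, SE; adjusted p = 0.034). Cluster-9253.48502 (646 bases) had 690.68, 749.36, 905.7 and 702.98 FPKM in UL and 607.29, 575.17, 559.55 and 479.92 in UH, with no overlap (log2 fold change -0.45 ± 0.15, SE; adjusted p = 0.0347).

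With 1 library left out, the call on Cluster-9253.48763 was lost without UL replicates 1, 2 or 3 or UH replicates 1, 2 or 4 (highest adjusted p = 0.0931). The call on Cluster-9253.48225 was lost without any 1 UL library or UH replicates 1, 2 or 4 (highest 0.0823). The call on Cluster-9253.48502 was lost without UL replicates 2 or 3 or UH replicates 2, 3 or 4 (highest 0.093). With median ratio scaling these 3 changes were -0.55, -0.44 and -0.10 on the log2 scale, and none was called (adjusted p = 0.271, 0.29 and 0.766). Over the 10 other settings the 3 calls were lost in 5, 4 and 6. Relative to the median of all tested clusters, the 3 changes as deposited were -0.62, -0.52 and -0.18.

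**Figure D3:**
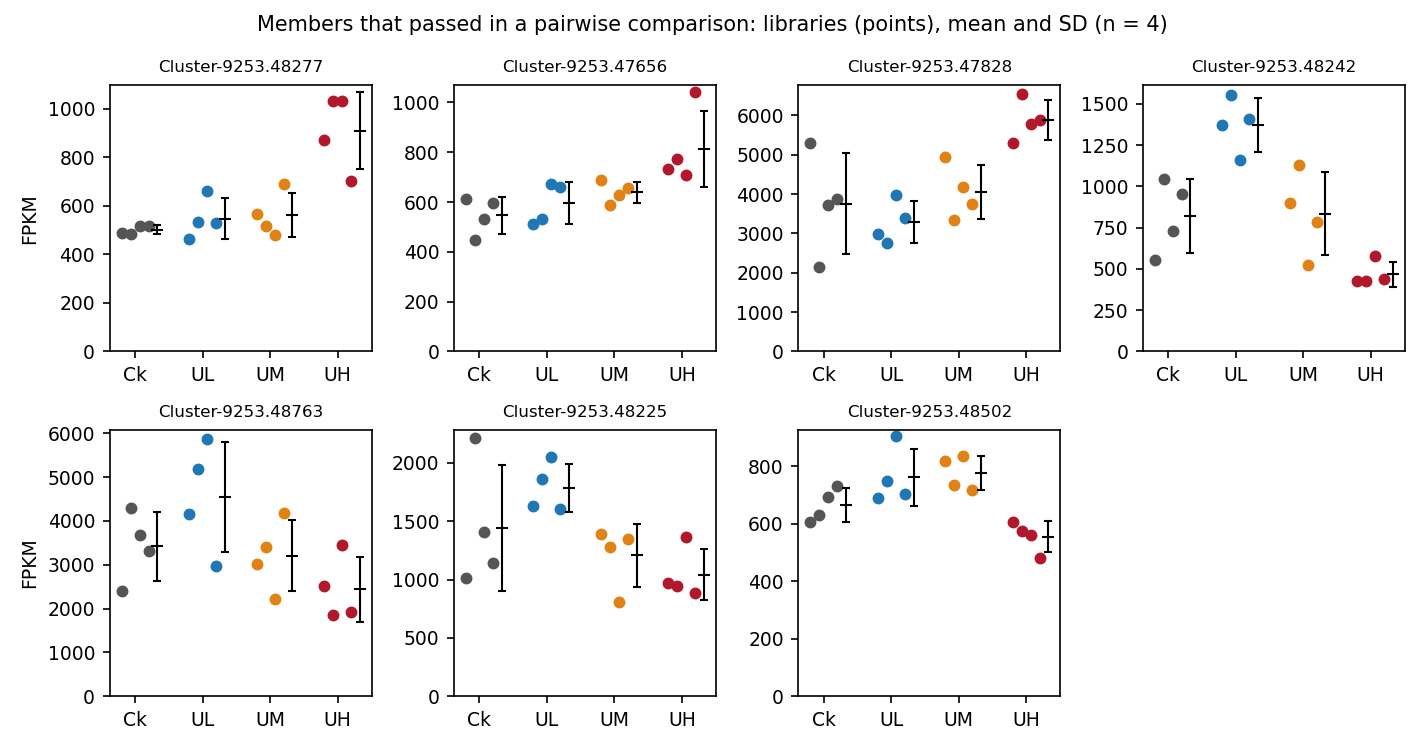
FPKM (vertical axes, starting at 0) of the 7 members called in a pairwise comparison, by group (horizontal axes). Points are the 4 libraries in replicate order, and the bar beside them is the mean with its SD (n = 4). In Cluster-9253.48277, Cluster-9253.47828 and Cluster-9253.47656 the UH points lie above the other 12, and in Cluster-9253.48242 the UL points lie between 1157.27 and 1556.08 FPKM.

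In some members the groups did not overlap, whether or not the test called them. Between UM and Ck this held for 6 members, none of them called and each higher in UM, beside 6.43% of all tested clusters in either direction, 3.70% higher and 2.73% lower. They were Cluster-9253.47764, Cluster-9253.51649, Cluster-9253.48027, Cluster-9253.47814, Cluster-9253.47842 and Cluster-9253.48454, the last 4 named for this after their values were seen. The log2 fold changes of the first 2 were 0.99 ± 0.35 and 2.02 ± 0.70 (SE; adjusted p = 0.311 in both). All of the 6 but Cluster-9253.47842 belong to block G, described below, whose members move together. Counted in either direction, the 6 members lie near the share of all tested clusters. Between UM and UL, 2 members lay higher in UM and 3 lower without overlap, beside 13.5% of all tested clusters, 8.16% higher and 5.31% lower. Between UH and UL, 5 lay higher and 4 lower in UH, beside 29.6%, with 9.02% higher and 20.5% lower. Of these 9, 5 were among the 6 called. Between UH and UM, 6 lay higher and 3 lower in UH, beside 16.4%, with 1.79% higher and 14.6% lower.

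The members differed in how much they varied. The coefficient of variation ran from 7.34 to 104.9% with a median of 24.1%, and 47 members stayed within a 2-fold range over the 16 libraries, 68 within 3-fold and 90 within 5-fold. Steadiest was Cluster-9253.48508 (2523 bases), which had 1097.57, 962.23, 1024.06 and 1110.78 FPKM in Ck and 993.09, 979.65, 1156.47 and 1169.93 in UL. It had 1153.32, 1042.04, 1090.72 and 1164.74 FPKM in UM and 1228.21, 1169.97, 1112.4 and 1187.41 in UH. Its range was 1.28-fold, and the UH values nevertheless lay above those of Ck, by amounts of the size of the spread within groups (log2 fold change 0.16 ± 0.14, SE; adjusted p = 0.479).

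Cluster-9253.47330 (1206 bases, 444.3 to 588.43 FPKM) and Cluster-9253.48367 (1834 bases, 390.57 to 543.53 FPKM) followed, with coefficients of variation of 8.54 and 8.64%. After Cluster-9253.51649, the most variable were Cluster-9253.48386 (553 bases) and Cluster-9253.44916 (339 bases), at 55.2 and 53.0%. Cluster-9253.48386 ran from 642.23 FPKM in Ck replicate 2 to 3774.32 in UM replicate 4, and was also high in UH replicate 1 (3724.88). Cluster-9253.44916 had 8773.11 FPKM in Ck replicate 2 and between 1613 and 4806.6 in the other 15 libraries.

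Members were of 312 to 10561 bases, with a median of 862.5, beside 1227 over all tested clusters. Of the members 19 were under 500 bases and 11 over 3000 bases, beside 23.0 and 19.6% of the tested clusters. The shortest were Cluster-9253.46457 (312 bases, 1564.62 to 5516.67 FPKM), Cluster-9253.44916 (339 bases) and Cluster-9253.49614 (352 bases, 385.44 to 2098.94 FPKM). The longest were Cluster-9253.81147 (10561 bases, 1074.4 to 4313.34 FPKM), Cluster-9253.48219 (6157 bases, 975.06 to 2728.47 FPKM) and Cluster-9253.51534 (5657 bases, 987.65 to 5045.25 FPKM). FPKM is a level per length, so these levels can be set beside each other, with the limit named above for clusters near the fragment length.

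Many members moved together from library to library. Over the 4950 pairs of members, the correlation of log2(FPKM + 1) across the 16 libraries ran from -0.88 to 1.00 with a median of 0.02. It was over 0.8 in 524 pairs and under -0.6 in 414. Average linkage with a mean r of at least 0.7 put 81 members in 7 blocks of 5 or more, called A to G by size, and left 19 in none. The blocks were found from the values of these libraries, which share their scaling, and are a description with no test. After the group means were subtracted, the median r within a block was 0.93 in A, 0.89 in B, 0.98 in C, 0.78 in D, 0.83 in E, 0.67 in F and 0.71 in G. These values pool the deviations of all 4 groups, and the lowest for a single pair of members was 0.31, in F. They come from the same libraries that set the blocks and give no separate support for them.

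**Figure D4:**
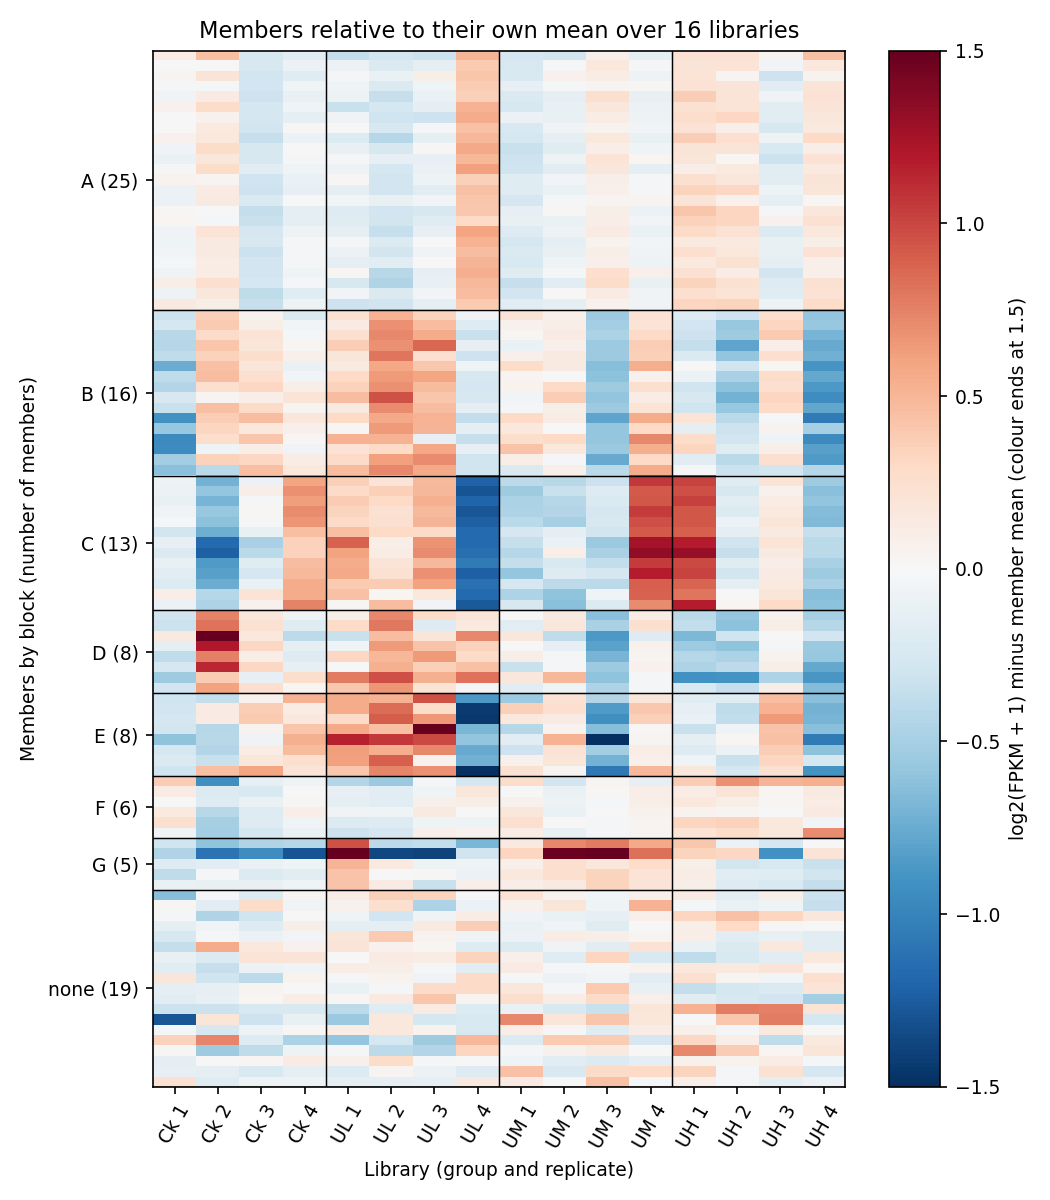
The 100 members (rows, by block) in the 16 libraries (columns): log2(FPKM + 1) minus the member's own mean, with red above and blue below the mean and the colour ending at 1.5. Block C is deep blue in UL replicate 4 and red in UM replicate 4 and UH replicate 1, and block A is red in UL replicate 4.

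Block A held 25 members with a median length of 622 bases, Cluster-9253.48825 (1989 bases, 684.48 to 1252.68 FPKM) being the most abundant by its minimum. Its share of a library lay between 1.58 and 2.88%. It was highest in UL replicate 4, where 22 of its 25 members had their highest value, and 10 had their lowest in Ck replicate 3. Cluster-9253.47563 and Cluster-9253.47561, neighbours in name, belong to it and had 954.3 and 925.44 FPKM in UL replicate 4. Between UH and Ck its members had log2 fold changes from 0.04 to 0.36, all 25 above 0 as deposited, but 20 of the 25 were below 0 with quantile normalization. Between UH and UM all 25 were likewise above 0 as deposited, and 13 with quantile normalization. As deposited, 34.8% of all tested clusters were above 0 in UH against Ck and 28.4% in UH against UM. None of the 25 members of block A was called by limma in any of the 6 comparisons (lowest adjusted p = 0.133), where between 0.0167 and 28.7% of all tested clusters were called. At an unadjusted p the lowest value was 0.0399, in UH against Ck.

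Block B held 16 members, among them Cluster-9253.47660, Cluster-9253.48799, Cluster-9253.48582 and the called Cluster-9253.48763, and took between 3.71 and 11.2% of a library. In replicates 1 to 4 its share was 4.66, 8.80, 7.61 and 6.54% in Ck, 6.75, 11.2, 8.08 and 6.11% in UL, 7.17, 6.53, 4.02 and 7.15% in UM, and 5.48, 4.47, 8.01 and 3.71% in UH. Of its members 12 were lowest in UH replicate 4 and 12 highest in UL replicate 2. The shares of the groups overlapped. Between UH and UL all 16 members were lower in UH as deposited, with a median log2 fold change of -0.58. Over all tested clusters the median was -0.27, and 29.5% were higher in UH. With median ratio scaling all 16 were lower (median -0.23), and with quantile normalization 15.

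Block C held 13 members, led by Cluster-9253.47538 (859 bases, 1358.18 to 6582.54 FPKM), and varied widely within each group. Its share was 2.64, 1.94, 2.90 and 4.54% in Ck, 3.47, 3.89, 3.77 and 1.36% in UL, 2.28, 2.19, 2.21 and 5.40% in UM, and 5.67, 2.47, 3.46 and 1.91% in UH. Within each group the highest share was 2.34 to 2.97 times the lowest, and limma called 0 of the 13 members in any comparison (lowest unadjusted p = 0.311), beside 0.0167 to 28.7% of all tested clusters. Of its members 12 were lowest in UL replicate 4 and 10 highest in UM replicate 4. The 8 members under 600 bases and the 5 longer ones were alike lowest in UL replicate 4, with median deviations of -1.19 and -1.21 on the log2 scale. UL replicate 4 also had the longest estimated fragments of the 16 libraries, at 295 bases. UH replicate 2 came next, at 293 bases, with a median deviation of -0.18 in block C. A link with fragment length was not tested.

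Block D held 8 members, including Cluster-9253.48231, Cluster-9253.48052, Cluster-9253.81147 and the called Cluster-9253.48225 and Cluster-9253.48242. Its share was 2.23, 5.64, 3.19 and 2.55% in Ck, 2.56, 4.81, 2.91 and 3.60% in UL, 2.76, 2.59, 1.58 and 2.56% in UM, and 1.87, 1.76, 2.91 and 1.80% in UH. Ck replicate 2 was highest in 6 of the 8 members. All 8 were lower in UH than in Ck and UL, and lower in UM than in UL, under each scaling run. As deposited the median log2 fold changes were -0.57, -0.69 and -0.55, beside -0.15, -0.27 and -0.07 over all tested clusters. Of all tested clusters, 34.8, 29.5 and 42.4% were higher as deposited. The members of a block move together, and the shares of these groups overlapped. Block E held 8 members, led by Cluster-9253.46457 and with the long Cluster-9253.51534, and took 1.08 to 4.09% of a library. Of these 8, 7 were lowest in UL replicate 4, the library in which block A was highest.

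Block F held 6 members, among them the called Cluster-9253.47828 and Cluster-9253.47656 and the steadiest member, Cluster-9253.48508. Its share was 1.21% ± 0.212 for Ck, 1.12% ± 0.151 for UL, 1.21% ± 0.186 for UM and 1.54% ± 0.0806 for UH (SD, n = 4). The 4 UH shares, 1.45 to 1.61%, lay above those of UL and, by a narrow margin, of Ck (0.931 to 1.43%), and overlapped those of UM (1.05 to 1.48%). Cluster-9253.47828 alone took 0.306 to 0.817% of a library. Member by member, all 6 were higher in UH than in Ck as deposited, with a median log2 fold change of 0.26. Over all tested clusters 34.8% were higher. With quantile normalization 2 of the 6 members were higher and 4 lower, with a median of -0.08. Of the 6 members of block F, 5 were lowest in Ck replicate 2, the library in which block D was highest.

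Block G held 5 members, Cluster-9253.47764, Cluster-9253.51649, Cluster-9253.48027, Cluster-9253.47814 and Cluster-9253.48454, and each had its highest value in UL replicate 1. It took 7.94% ± 0.314 of a library for Ck, 11.0% ± 6.39 for UL, 15.1% ± 2.48 for UM and 10.5% ± 1.85 for UH (SD, n = 4). The 4 UM shares, 12.0 to 17.4%, and the 4 UH shares, 9.14 to 13.2%, lay above the 4 Ck shares, 7.52 to 8.28%. Without UL replicate 1, the UL shares were 7.28 to 8.88%. These shares consist mostly of Cluster-9253.47764. Member by member, all 5 had a higher mean in UM than in Ck on the log2 scale, while between UH and Ck 3 were higher and 2 lower, with a median log2 fold change of 0.07 and none called. That split also depended on scaling, with all 5 higher under median ratio scaling and 1 higher and 3 lower under quantile normalization. Over all tested clusters, 58.1% were higher in UM and 34.8% in UH than in Ck as deposited.

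**Figure D5:**
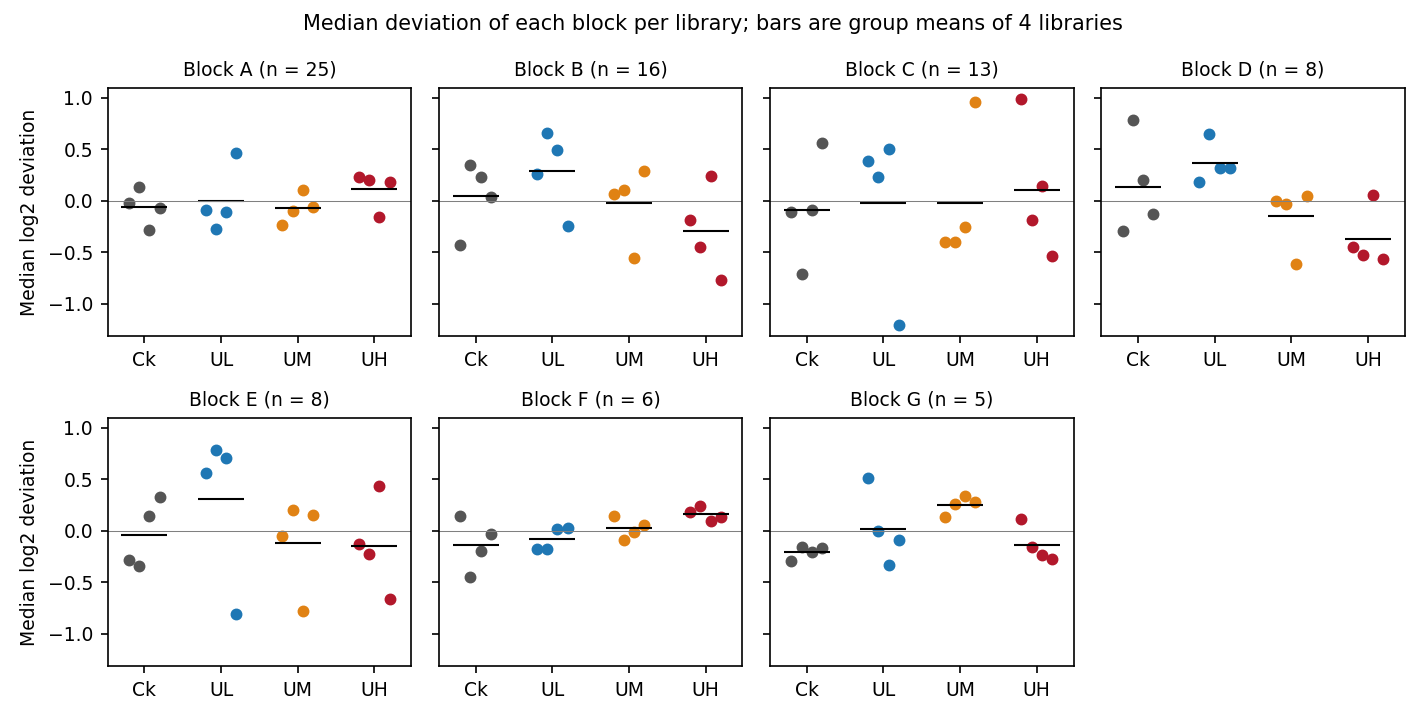
Median deviation of the members of each block from their own mean (vertical axes, log2 scale) in each library, by group (horizontal axes). Points are libraries and bars group means (n = 4). Block C spreads from -1.21 to 0.99, while block F stays between -0.45 and 0.24 and block G lies highest in UM and in UL replicate 1.

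Between blocks the median r over pairs of members was 0.72 for B and D and 0.71 for B and E. It was -0.69 for A and E, -0.65 for D and F and -0.55 for A and B. After group means were subtracted these values, pooled over the 4 groups, were 0.67, 0.72, -0.75, -0.50 and -0.59. The pairs of blocks named here had the highest and lowest median r. All these values come from the same libraries that set the blocks and give no separate support for them. These correlations are over 16 libraries that share a scaling to their own total, and no cause was tested.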

How the data were processed

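Per the labels' protocols, poly-A RNA of whole spiders was fragmented, reverse transcribed from random primers and read on an Illumina sequencer. FPKM was calculated by the authors for each cluster and deposited with 2 decimals, with a length per cluster taken to be in bases. Which tools assembled, aligned and counted is not given in the sources used here. A mouse build, mm10, is named by the submitters' processing notes. It does not match the organism, and no coordinates were used.

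All 16 libraries entered 1 limma fit (limma 3.58.1, R 4.3.3) of log2(FPKM + 1) with a mean-variance trend and 12 residual degrees of freedom, over 36003 clusters. A fold change on this scale understates the change of low clusters, which members are not. Tests are two-sided, with Benjamini-Hochberg adjustment over all tested clusters within each comparison. The limma and depth steps were tested on simulated data. Depth came from fitting the FPKM of 1 fragment to length (500 to 1200 bases). Blocks used scipy 1.17.1.

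Members, lists and tests were chosen with earlier results of these data known. Named clusters were the 10 highest minima, the 3 on each side of the limit, called members with the largest changes (up to 8 each way), the 3 steadiest, most variable, shortest and longest, and neighbours in name. Alternatives were the pseudocount, the filter, scaling, weights, the trend, the groups fitted, a replicate block, single libraries left out and other rules for members.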

Additional observations from a re-analysis of the deposited data

Results flagged for a closer look

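In groups of 4, a library was listed here when its gap to the nearest other value took more of the group's whole range than Dixon's 95% critical value allows. Of 164 groups of values examined (40 named members and the summed share, in 4 groups), 13 were listed; chance alone lists about 1 in 20, and members of a block are not independent of each other.

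In UL replicate 1, Cluster-9253.47764 had 137624.41 FPKM, against 44216.72 to 55258.63 in the other UL libraries. Cluster-9253.51649 had 35152.72 FPKM there, against 2180.43 to 4652.91. Both belong to block G.

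UH replicate 3 stood apart in 5 members. Cluster-9253.51649 had 3040.33 FPKM, against 6514.65 to 7185.34 in the other UH libraries. Cluster-9253.47563 had 658.59 FPKM (others 840.92 to 855.79) and Cluster-9253.48457 had 451 FPKM (others 576.63 to 600.7), both lower and both of block A. Cluster-9253.81147 had 1837.05 FPKM (others 1232.88 to 1283.69) and Cluster-9253.48242 had 579.95 FPKM (others 426.53 to 436.63), both higher and both of block D.

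UM replicate 4 was high in 2 members of block C: Cluster-9253.47649 had 3853.44 FPKM (others 1673.77 to 1827.37) and Cluster-9253.48522 had 2398.95 FPKM (others 894.29 to 985.67). UL replicate 4 was low in Cluster-9253.47649, at 900.18 FPKM (others 2468.8 to 2779.1), and high in Cluster-9253.48393, at 470.5 FPKM (others 387.96 to 391.62). Ck replicate 2 was high in Cluster-9253.44916, at 8773.11 FPKM (others 2235.77 to 3275), and UM replicate 3 low in Cluster-9253.47558, at 1665.04 FPKM (others 2563.66 to 2666.11).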

How the results depend on the processing

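Of 100 members, 2 were called between UH and Ck, 6 between UH and UL and 2 by the F test, beside 11.2, 28.7 and 18.9% of all tested clusters. Both the counts and those backgrounds moved with the settings. UH against Ck gave 7 with array weights (background 18.1%), 5 with median ratio scaling (9.97%) and 4 without the trend (10.7%). It gave 1 with a pseudocount of 0.1 (11.8%), no filter (1.33%), equal FPKM sums of all clusters (10.9%) or of those that are not members (8.95%) and the replicate block (9.83%), and 0 with quantile normalization (8.95%) or in a fit of those groups alone (3.25%). UH against UL gave 28, 15, 10, 3, 2 and 3 with array weights, median ratio scaling, no trend, the pseudocount of 0.1, no filter and the block, against backgrounds of 38, 19.2, 28.5, 29, 5.56 and 27.6%, and 12 with quantile normalization (21.7%). UH against UM gave 3, 1 and 1 with array weights, median ratio scaling and no trend (13.4, 1.48 and 2.5%), against 0 (2.82%). The F test gave 11, 6 and 4 with these (33.3, 14.3 and 18.3%), and 1 with equal sums of the clusters that are not members (16%). Among 200 members, 3.0, 12.5, 0.5 and 1.5% were called in UH against Ck, UL and UM and in UM against UL, and 5.0% by the F test. Among 50, 0 were called in UH against Ck and 0 by the F test. The other 2 member rules shared 92 and 95 of the 100 members and left every count the same.

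With 1 library left out, UH against Ck gave 1 to 5 (5 without Ck replicate 1), UH against UL 2 to 12 (2 without UL replicate 2 or UH replicate 2, 12 without UL replicate 4), UH against UM 0 to 1 and the F test 1 to 3. The background ran from 4.75 to 12.7% (12.7% without Ck replicate 1), 21.1 to 31.9% (23.9, 22.2 and 21.2% without UL replicate 2, UH replicate 2 and UL replicate 4), 1.05 to 3.98% and 10.0 to 22.1%. The mean share ran from 29.0 to 31.4% in Ck, 32.9 to 37.6% in UL, 34.1 to 35.8% in UM and 28.6 to 32.0% in UH.

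As FPKM times length the share was 24.1, 28.0, 26.1 and 22.5% in Ck, UL, UM and UH. Without the most abundant cluster it was 24.6, 25.2 and 23.1% in Ck, UM and UH. With 50 members it was 25.4 and 30.7% in Ck and UM, and with 200 it was 36.6, 41.7 and 38.1% in Ck, UM and UH.

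Deviations of libraries with the same replicate number in other groups had correlations from -0.28 to 0.26, with 5 of 24 over 0.1. With other replicate numbers they ran from -0.39 to 0.46, with 18 of 72 over 0.1. These values gave no sign of pairing by number, which 4 libraries per group cannot exclude. Over all tested clusters, median ratio scaling moved the median change (log2) from -0.15 to -0.00 in UH against Ck and from -0.27 to -0.05 in UH against UL. None of the 8 called changes reversed its direction under the alternatives run. The changes of single members that were not called were not checked in this way. A mean r of 0.6 or 0.8, chosen after the data were seen, as were the block counts under other scalings, gave 6 and 4 blocks in place of 7. The causes were not tested.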

Other observations

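The 100 clusters with the highest means share 52 clusters with the members. The other 48 were as abundant on average but dropped in some library: 5 fell under 1 FPKM in a library, 1 of them to 0. Their median length was 612 bases, and their median coefficient of variation was 81.4%, beside 24.1% over the members. The rule itself sets this difference.

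All 100 members carry the first number 9253 in their names, as do 98.3% of the tested clusters. By the second number, 91 members lay between 46611 and 51534, a range with 12.9% of the tested clusters. What the numbering follows is not stated.

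In 8 places, members' second numbers differed by at most 5. Cluster-9253.47561 (399 bases) and Cluster-9253.47563 (920 bases) followed each other across the 16 libraries (r = 0.90). Of the other 8 neighbouring pairs none had r over 0.04. For example, Cluster-9253.47558 and Cluster-9253.47561 had r = -0.62, and Cluster-9253.47656 and Cluster-9253.47660 had r = -0.58. The number of members with their highest group mean was 5 for Ck, 43 for UL, 11 for UM and 41 for UH, beside 16.9, 45.7, 20.3 and 17.1% of all tested clusters. For the lowest group mean it was 39, 7, 20 and 34, beside 17.7, 18.7, 9.64 and 54.0%. These counts are of FPKM as deposited, and directions depended on scaling for many members. Members of a block are not independent of each other.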
